A study of Mus musculus with 16 samples.

Results

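RNA-seq of tumor-adjacent colon, called adjacent normal here, was compared between *Il23r*ΔTreg and WT mice. The groups were taken from the genotype and tissue in the sample labels, which gave 8 of the 16 libraries of the series: 5 from *Il23r*ΔTreg and 3 from WT mice, each from a different animal. The other 8 libraries are tumors of the same mice and were used only to set a value beside that of the adjacent normal tissue. WT mice were *Foxp3*YFP-Cre and *Il23r*ΔTreg mice were *Il23r*flfl *Foxp3*YFP-Cre, on a C57BL/6 background, so both groups carried the Cre recombinase and differed in the floxed *Il23r* alleles. The Cre is driven from *Foxp3* and is meant to remove *Il23r* from FOXP3+ Treg cells and to leave it in other cells. All mice were labelled male, were 7 to 8 weeks old at the start and had received azoxymethane (AOM, 10 mg/kg) and 3 cycles of 5 days of 3.5% dextran sodium sulfate (DSS), each followed by 16 days of recovery. AOM is a carcinogen and DSS injures the colon epithelium, so the adjacent normal tissue came from a colon that had been inflamed and that bore tumors. The 3 WT mice shared a cage label that no *Il23r*ΔTreg mouse carried, and 4 of the 5 *Il23r*ΔTreg mice shared another on their adjacent normal libraries. One of these 4, mouse2901, carries a different cage label on its tumor library. The methods describe mice housed together with exchange of bedding, but by the labels the effects of genotype and of cage cannot be told apart. RNA was taken from whole tissue, and in such samples fewer cells of a type and less RNA per cell cannot be told apart.

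IL-23 is a cytokine of myeloid cells. Its receptor pairs IL-23R with the shared subunit IL-12Rβ1 and signals through JAK2, TYK2 and STAT3 in T cells and innate lymphocytes of the gut, where it favors type 3 immunity. Treg cells restrain inflammation in the colon and a part of them can also express IL-23R. The colon wall around a tumor holds absorptive colonocytes, mucus-making goblet cells, rare hormone-secreting cells, stem and dividing cells at the crypt base, plasma cells that make IgA, lymphoid follicles and a muscle coat.

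The libraries held 45092714 to 53943842 counts each, and 16372 of 19574 genes passed a filter on low counts. The defining markers of colon were present in every library. *Slc26a3* of absorptive cells ran from 229 to 1225 CPM (counts scaled to library size), *Muc2* of goblet cells from 1875 to 7810 CPM, *Chga* of enteroendocrine cells from 59.8 to 138 CPM and *Myh11* of muscle from 1532 to 3357 CPM. In all values below, the mice are in the order WT mouse2988, mouse2989 and mouse2990, then *Il23r*ΔTreg mouse2901, mouse2902, mouse2903, mouse2904 and mouse3883. *Rn18s*, a ribosomal RNA that remained although the labels give the libraries as poly(A)-selected, took 19.4, 17.1 and 2.39% of the counts in WT mice. It took 9.10, 1.84, 0.661, 4.85 and 0.999% in *Il23r*ΔTreg mice, so that 2 WT libraries held the largest shares. The library of WT mouse2990 stood apart in other ways. Rank correlations with gene length were taken on log2 CPM relative to the mean of the 8 libraries, over genes, which do not replicate each other. That library had 0.40, against -0.26 to 0.19 in the others. It also had 560 CPM of *Mki67*, a marker of dividing cells, against 82.8 to 233 CPM elsewhere, and 6.71 CPM of *Xist*, an RNA of the inactive X chromosome, against 0.633 CPM or less in the others, although Y-linked *Ddx3y* was at 21.9 to 85.9 CPM in all 8 libraries.

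*Il23r* itself was close to undetected. It was at 0.185, 0.151 and 0.134 CPM in WT mice and 0.211, 0.109, 0.277, 0.159 and 0.0995 CPM in *Il23r*ΔTreg mice, from 6 to 14 counts per library, and did not pass the filter. The groups overlapped, and because the deletion is limited to Treg cells and other cells can express the gene, the whole-tissue level is no check of the genotype of a library. *Foxp3*, the transcription factor that defines Treg cells, was at 0.924, 0.302 and 0.191 CPM in WT and 1.62, 0.363, 0.890, 0.218 and 1.03 CPM in *Il23r*ΔTreg mice. *Il23r*ΔTreg over WT, here and in all that follows, it differed by 0.82 on the log2 scale (standard error 0.71) with an adjusted p of 0.955 in edgeR's quasi-likelihood test. The spread between mice of 1 genotype was thus as large as the difference between genotypes.

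Of 12 tested genes of the IL-12 and IL-23 family, their receptors and their signaling proteins, none was called by edgeR and none reached an unadjusted p under 0.05. No member was called by DESeq2 either. Their median log2 fold change was 0.32, beside 0.02 over all genes tested, and it was 0.06 without the library of *Il23r*ΔTreg mouse2901 and 0.12 without that of WT mouse2990. Among the ligands, *Il23a*, the IL-23 p19 subunit, was at 0.396, 0.517 and 0.822 CPM in WT and 0.253, 0.382, 1.33, 0.337 and 0.332 CPM in *Il23r*ΔTreg mice. *Il12b*, the p40 subunit that IL-12 and IL-23 share, was at 1.00, 0.280 and 0.0765 CPM in WT and 0.906, 0.327, 1.42, 0.516 and 1.08 CPM in *Il23r*ΔTreg mice. Both overlapped between the genotypes at these low levels. The receptor subunit *Il12rb1* was at 0.37 on the log2 scale of fold change (standard error 0.53), and the kinases *Jak2* and *Tyk2* had -0.36 (standard error 0.28) and 0.10 (standard error 0.14). *Stat3* was abundant, at 153 to 201 CPM in WT and 159 to 230 CPM in *Il23r*ΔTreg mice, a log2 difference of 0.08 (standard error 0.17). *Il6st*, the gp130 subunit of the IL-6 and IL-27 receptors, had the smallest p of the list (log2 fold change 0.30, standard error 0.16, adjusted p = 0.955 by edgeR). Of 21 genes of Treg cells tested, 0 were called by edgeR or DESeq2 and 0 reached an unadjusted p under 0.05 by edgeR, with a median of 0.26 that was 0.01 without WT mouse2990 and 0.08 without mouse2901.

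Over all genes, libraries of the other genotype were about as far apart as libraries of the same genotype. The Euclidean distance between log2 CPM profiles averaged 89.5 between WT libraries (3 pairs, 67.1 to 104.2), 93.6 between *Il23r*ΔTreg libraries (10 pairs, 65 to 115) and 92.1 between the genotypes (15 pairs, 71.9 to 136.7). The mean between genotypes minus the mean within them was -0.59 (two-sided exact permutation test, p = 0.911, all 56 ways to label 3 libraries as WT, smallest possible p = 0.0179). Without WT mouse2990 the difference was -7.34 (exact permutation test, p = 0.19), and without WT mouse2988 it was 2.74 (exact permutation test, p = 0.81). Spearman's rho across genes ran from 0.961 to 0.991 in the 13 pairs of the same genotype and from 0.940 to 0.989 in the 15 pairs of different genotypes. The first principal component held 33.9% of the variance and set *Il23r*ΔTreg mouse2901 (-71.1) against WT mouse2990 (59.7). The remaining 6 libraries lay between -27.6 and 17, with both genotypes on each side of 0. On the second component, with 22.8%, WT mice were at -11.2, -22.2 and 40.9 and *Il23r*ΔTreg mice at 11.9, -24.3, 32, -49.5 and 22.5. Neither component separated the genotypes.

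**Figure D1:**
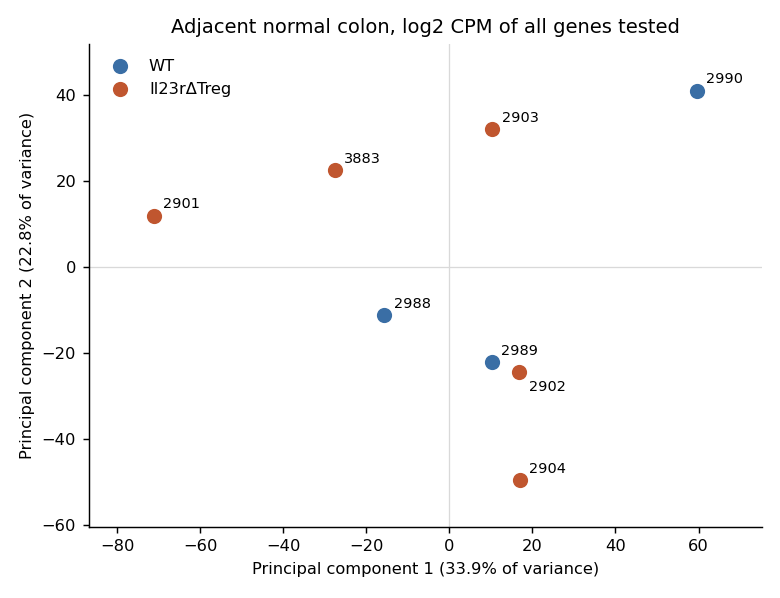
First and second principal components of log2 CPM over all genes tested, in arbitrary units with the share of variance on each axis. Each point is 1 adjacent normal library, labelled with its mouse and colored by genotype, and the 3 WT libraries lie among the 5 *Il23r*ΔTreg libraries, with mouse2901 and mouse2990 at the ends of the first component.

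Calling a gene required both a log2 fold change beyond 1 and an adjusted p below 0.05. A single gene, *Gm16867*, of 16372 (0.00611%) was called between the genotypes in adjacent normal tissue, and 629 had an unadjusted p under 0.05 by edgeR (292 higher, 1.78%, and 337 lower, 2.06%). In the tumors of the same mice, 296 of 17122 genes were called (1.73%), 25 higher and 271 lower. The interaction of tissue and genotype over 17122 genes called 0 by edgeR, where 2370 had an unadjusted p under 0.05, and 349 by DESeq2. Most differences in adjacent normal tissue were small. The median size of the log2 fold change was 0.17, 14300 genes (87.3%) were within 0.5 and 516 (3.15%) lay beyond 1. The 95% interval of the log2 fold change lay within 1 of 0 in 11718 genes (71.6%). That share depended on the level, with 91.7% of the 5865 genes of a mean log2 CPM over 5, 78.8% of the 7268 genes between 1 and 5 and 19% of the 3239 genes under 1. For low genes a difference of 2-fold was therefore often not detectable at this depth and number of mice. These intervals are not adjusted for the number of genes, whereas a call is, so high genes with such a difference could fail too. *Slc26a2* (mean log2 CPM 9.55, log2 fold change -1.23) and *Abcb1a* (mean log2 CPM 8.99, log2 fold change -1.15) both had an adjusted p of 0.955 by edgeR. Values of the *Il23r*ΔTreg and WT mice did not overlap in 267 genes that were higher (1.63%) and 225 that were lower (1.37%) in *Il23r*ΔTreg mice. Gene counts called by edgeR varied with the library left out, with 2 genes without WT mouse2988 and 3 without *Il23r*ΔTreg mouse2901.

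**Figure D2:**
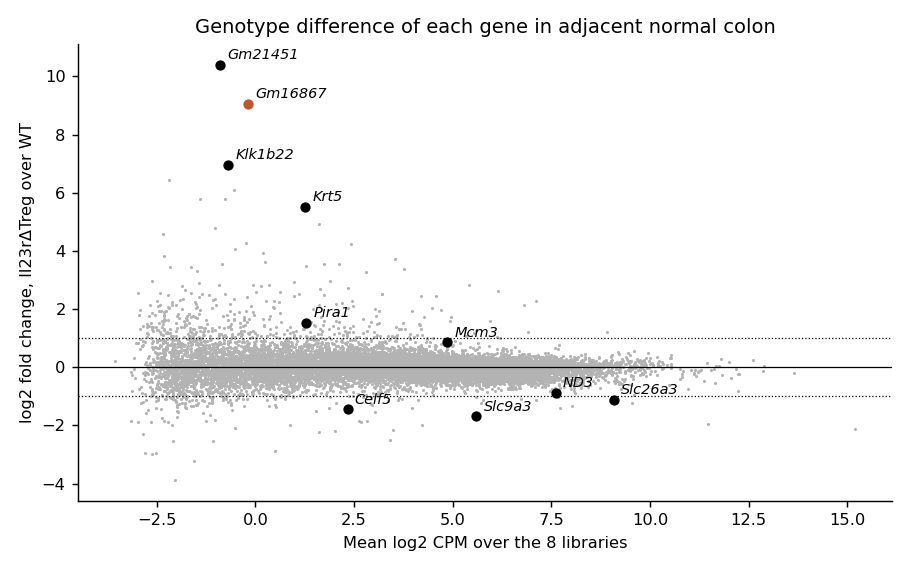
Log2 fold change (*Il23r*ΔTreg over WT, vertical) against the mean log2 CPM over the 8 libraries (horizontal), 1 point per gene tested, with dotted lines at a log2 fold change of 1 and -1. *Gm16867*, the only gene called by edgeR, is in orange, other genes named in the text are in black, and the cloud of genes narrows around 0 as the level rises.

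*Gm16867*, a gene model without an assigned function on chromosome 14, was at 0.0264, 0 and 0 CPM in WT mice and at 3.26, 6.58, 4.45, 4.42 and 7.59 CPM in *Il23r*ΔTreg mice. It was present in every *Il23r*ΔTreg library and rested on 1 count in total in WT mice against 1423 counts in *Il23r*ΔTreg mice. It rose by 9.06 on the log2 scale (standard error 0.69), and edgeR gave it an adjusted p of 0.00187. Over the pooled counts of each group, scaled to library size, the ratio was 852, with an exact 95% interval of 153 to 33700 that covers counting error only. The tumors of the same mice showed the same split, with 0, 0 and 0 CPM in WT and 4.59, 7.79, 4.76, 3.43 and 7.19 CPM in *Il23r*ΔTreg tumors, at least 258-fold higher against a floor of 3 counts over the WT group (adjusted p = 8.28e-05 by edgeR). The genotype effect did not differ detectably between the tissues (interaction adjusted p = 0.54 by edgeR). Reads of this gene are hard to place, because 93.7% of the 7809 stretches of 31 bases in its transcripts also occur in transcripts of 2 other genes, 88% in *Gm27177* and 5.67% in *Slc25a37*, and its level is uncertain for that reason.

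*Gm21451*, the next tested gene on chromosome 14, had the same pattern, with 0 counts in all 3 WT libraries and 30, 355, 86, 119 and 342 counts in *Il23r*ΔTreg libraries. That is 0, 0 and 0 CPM against 0.632, 6.45, 1.70, 2.36 and 5.67 CPM, at least 186-fold higher against a floor of 3 counts over the WT group. It was not called by edgeR (adjusted p = 0.586) and was called by DESeq2 (adjusted p = 6.42e-09). In tumors it was at 0, 0 and 0 CPM in WT and 0.463, 1.09, 1.32, 0.238 and 0.897 CPM in *Il23r*ΔTreg mice, at least 38-fold higher (adjusted p = 0.0321 by edgeR). Of its 2745 stretches of 31 bases, 98.9% occur in 2 other genes, 84.4% in *Loxl2*, which makes a collagen-crosslinking oxidase, and 14.5% in *Gm27222*. *Loxl2* itself was higher by 0.46 on the log2 scale (standard error 0.18), with an adjusted p of 0.955 by edgeR. The genes on the other side of *Gm16867*, *Entpd4* and *Slc25a37*, had 0.12 (standard error 0.16) and -0.16 (standard error 0.15), and none of the other tested neighbors, up to 6 on each side, was called.

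Other genes were present or absent by mouse rather than by genotype alone, with the same mice set apart in both tissues. These genes were chosen after their values were seen. *Klk1b22*, a kallikrein-related protease on chromosome 7, was at 0, 0.0647 and 0.0383 CPM in WT and 0.0211, 5.44, 4.47, 9.39 and 4.79 CPM in *Il23r*ΔTreg mice, near 0 in mouse2901 as in WT. In tumors it was at 0, 0.0162 and 0.0294 CPM in WT and 0, 5.79, 4.39, 2.46 and 6.14 CPM in *Il23r*ΔTreg mice, again near 0 in mouse2901. With all 8 libraries it was not called by edgeR (adjusted p = 0.955) and was called by DESeq2 (adjusted p = 0.00432). Without mouse2901 edgeR called *Klk1b22* too (log2 fold change 7.28, adjusted p = 0.00298), and 41.1% of its 825 stretches of 31 bases are shared with 21 other genes. *Gm1965*, a gene model on chromosome 6, was at 3.33, 2.48 and 1.95 CPM in WT and 3.90, 0.0182, 1.82, 0 and 2.85 CPM in *Il23r*ΔTreg mice, near 0 in mouse2902 and mouse2904. Its tumors gave 2.85, 2.80 and 2.79 CPM in WT and 3.83, 0.0191, 0.999, 0 and 1.75 CPM in *Il23r*ΔTreg mice, with the same 2 mice near 0. *Clec2e*, a C-type lectin gene of chromosome 6, was lowest in the same mice, with 10.0, 8.17 and 11.3 CPM in WT and 2.55, 0.582, 3.03, 0.397 and 3.99 CPM in *Il23r*ΔTreg mice. The groups did not overlap in adjacent normal tissue (log2 fold change -2.22, standard error 0.62, adjusted p = 0.955 by edgeR), while tumors overlapped, at 3.75 to 5.70 CPM in WT and 0.324 to 4.75 CPM in *Il23r*ΔTreg mice.

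Mouse2901 and mouse3883 were set apart by other genes. *Srd5a2* on chromosome 17, a steroid 5α-reductase, was at 22.9, 19.6 and 25.7 CPM in WT and 0.274, 8.60, 10.6, 11.9 and 0.514 CPM in *Il23r*ΔTreg mice (adjusted p = 0.955 by edgeR). *Gm31235*, also on chromosome 17, was at 34.01, 28.7 and 36.7 CPM in WT and 0.105, 10.4, 9.48, 25.8 and 0.448 CPM in *Il23r*ΔTreg mice (adjusted p = 0.955 by edgeR). Both were lowest in mouse2901 and mouse3883, and in their tumors too, where *Srd5a2* was at 0.140 and 0.897 CPM and *Gm31235* at 0.140 and 0.448 CPM. A second identifier of *Nnt*, a mitochondrial transhydrogenase gene, had counts in mouse3883 alone among the adjacent normal libraries (4.39 CPM) and in the tumors of mouse3883 (8.70 CPM) and WT mouse2990 (6.14 CPM). WT mouse2990 thus had 209 counts of it in its tumor library and 0 in its adjacent normal library, the library with the high *Xist*, so that it is in doubt whether both came from the same mouse. Of the 58 genes with an unadjusted p under 0.05, a log2 fold change beyond 1 and no overlap (32 higher, 26 lower), 13 were on chromosome 7 (22.4%, beside 7.63% of genes tested) and 10 on chromosome 6 (17.2%, beside 5.68%). Most were low, 44 with a mean log2 CPM under 1.

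*Pira1*, an activating paired immunoglobulin-like receptor gene of myeloid and B cells on chromosome 7, was the gene with the second smallest p in the comparison. It was at 1.35, 1.31 and 1.07 CPM in WT and 3.41, 3.69, 3.84, 3.27 and 3.70 CPM in *Il23r*ΔTreg mice. The groups lay well apart with little spread in each (log2 fold change 1.53, standard error 0.22), but the adjusted p by edgeR was 0.299, while DESeq2 called it (adjusted p = 3.81e-08). In tumors the genotypes overlapped, with 1.29, 1.99 and 2.94 CPM in WT and 2.25, 3.70, 2.46, 3.08 and 1.39 CPM in *Il23r*ΔTreg mice. *Pira11* was at 0.660, 0.711 and 0.421 CPM in WT and 1.14, 4.33, 4.61, 6.17 and 6.43 CPM in *Il23r*ΔTreg mice, without overlap (log2 fold change 2.93, standard error 0.54). It was not called by edgeR with all libraries (adjusted p = 0.955), but was by DESeq2 (adjusted p = 1.02e-05) and by edgeR without mouse2901 (adjusted p = 0.00911) or without mouse2990 and mouse2901 (adjusted p = 0.0251). *Lilra6* and *Pira2* of the same family were higher on average with overlap (1.67, standard error 0.45, and 1.12, standard error 0.47). The inhibitory member *Pirb* had 0.41 (standard error 0.32). These receptors form a multigene family of similar sequence, which makes the values of single members uncertain. The sequence they share was not measured here.

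*ND3*, a subunit of respiratory complex I encoded in mitochondrial DNA, was at 319, 288 and 253 CPM in WT and at 163, 158, 156, 150 and 155 CPM in *Il23r*ΔTreg mice. All 5 *Il23r*ΔTreg libraries lay close to each other and below every WT library. The log2 fold change was -0.88 (standard error 0.13, unadjusted p = 6.12e-05, adjusted p = 0.334 by edgeR), under the threshold of size and not past that of the test. In tumors *ND3* was at 396, 207 and 241 CPM in WT and 139, 164, 127, 187 and 142 CPM in *Il23r*ΔTreg mice, also without overlap (log2 fold change -0.89, adjusted p = 0.0266 by edgeR). The other 12 mitochondrially encoded genes showed nothing of this size with an unadjusted p under 0.05 by edgeR. *ND1* had -0.18 (standard error 0.18), *COX1* -0.20 (standard error 0.20), *CYTB* -0.25 (standard error 0.18) and *ATP6* -0.53 (standard error 0.26), and the median of the 13 was -0.23. Of these 13 genes, 12 had a lower mean in *Il23r*ΔTreg mice and 2 were lower without overlap (1.37% of all genes tested). Their sums were 38463, 41724 and 37269 CPM in WT and 30307, 35069, 34925, 30519 and 34323 CPM in *Il23r*ΔTreg mice, without overlap. *ND3* shares 98.1% of its 318 stretches of 31 bases with *Gm28438*.

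**Figure D3:**
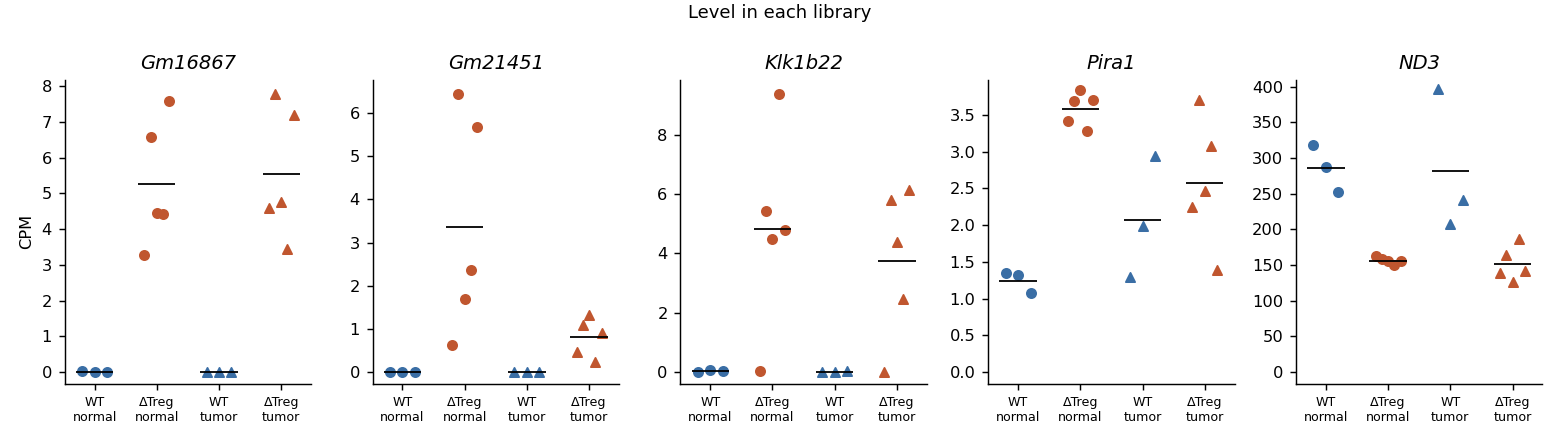
Level in CPM (linear axis from 0) of *Gm16867*, *Gm21451*, *Klk1b22*, *Pira1* and *ND3* in each library, with circles for adjacent normal tissue, triangles for tumors, WT in blue, *Il23r*ΔTreg in orange and a bar at the group mean. *Gm16867*, *Gm21451* and *ND3* split by genotype in both tissues, *Klk1b22* is near 0 in 1 *Il23r*ΔTreg mouse in each tissue, and *Pira1* splits in adjacent normal tissue only.

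Each of the following genes had groups without overlap, a log2 fold change beyond 1 and an adjusted p of 0.955 by edgeR, so none passed that test. *Celf5*, an RNA-binding protein of the CELF family, was at 6.60, 7.59 and 15.0 CPM in WT and 2.32, 3.999, 4.33, 4.13 and 3.15 CPM in *Il23r*ΔTreg mice (log2 fold change -1.44, standard error 0.31). *1600014C10Rik* was at 11.6, 9.59 and 9.18 CPM in WT and 36.1, 75.1, 20.5, 56.8 and 17.4 CPM in *Il23r*ΔTreg mice (log2 fold change 2.03, standard error 0.47). DESeq2 called both, at adjusted p = 0.0155 for *Celf5* and 0.00432 for *1600014C10Rik*, and also *Ighv7-4* (adjusted p = 0.0404). *0610005C13Rik* had -1.13 (standard error 0.30), the cilia gene *Odad1* -1.02 (standard error 0.33), *Zfp185* 1.24 (standard error 0.35) and *Sox21*, a transcription factor, 1.05 (standard error 0.34). Antibody variable segments were also higher, *Igkv3-2* (2.46, standard error 0.65), *Ighv7-4* (2.52, standard error 0.72) and *Ighv1-62-2* (3.57, standard error 1.08), and in *Ighv1-62-2* the value of mouse2901, 57.6 CPM, exceeded those of the other *Il23r*ΔTreg mice (2.59 to 15.1 CPM). Variable segments are near copies and depend on the B cell clones that a piece of tissue happens to hold.

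Genes of DNA replication were higher as a group in *Il23r*ΔTreg mice, although no single gene passed the adjusted threshold. The list was chosen with earlier results of these data known. Its genes were measured in the same libraries and do not replicate each other, so counts of them are no test of the group. The list holds the machinery that opens and copies DNA before cell division, such as the MCM helicase, the sliding clamp PCNA, polymerases, and the enzymes that make nucleotides. Of its 44 genes, 43 had a higher mean in *Il23r*ΔTreg mice, 30 had an unadjusted p under 0.05 by edgeR in that direction (1.78% of all genes tested) and 26 did not overlap between the groups (1.63% of all genes tested). The median log2 fold change was 0.51, beside 0.02 over all genes, and the smallest adjusted p was 0.955. DESeq2 gave 0 genes of the list an adjusted p under 0.05. The sequences before the start sites of 3 helicase genes with the smallest p are shown because they hold a shared motif. They run from 250 bases before the start site to 50 after it, on the minus strand, 5′ to 3′ (RefSeq, GRCm38.p6). Capitals mark the letters of the E2F consensus, searched as TTTCCCGC, TTTCGCGC, TTTGCCGC and TTTGGCGC on both strands.
*Mcm3*, chr1:20820263-20820562: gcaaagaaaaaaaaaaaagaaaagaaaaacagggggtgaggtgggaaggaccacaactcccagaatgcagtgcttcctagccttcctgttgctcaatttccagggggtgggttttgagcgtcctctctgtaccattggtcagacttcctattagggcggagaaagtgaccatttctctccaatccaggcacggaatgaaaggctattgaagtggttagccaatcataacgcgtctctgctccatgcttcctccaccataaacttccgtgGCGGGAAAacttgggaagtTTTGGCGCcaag
*Mcm6*, chr1:128359656-128359955: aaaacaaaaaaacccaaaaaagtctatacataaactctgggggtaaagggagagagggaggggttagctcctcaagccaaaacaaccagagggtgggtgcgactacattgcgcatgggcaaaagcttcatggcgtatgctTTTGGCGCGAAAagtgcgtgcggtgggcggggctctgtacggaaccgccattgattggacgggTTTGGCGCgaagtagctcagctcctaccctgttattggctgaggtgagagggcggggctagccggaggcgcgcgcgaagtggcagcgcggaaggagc
*Mcm7*, chr5:138171834-138172133: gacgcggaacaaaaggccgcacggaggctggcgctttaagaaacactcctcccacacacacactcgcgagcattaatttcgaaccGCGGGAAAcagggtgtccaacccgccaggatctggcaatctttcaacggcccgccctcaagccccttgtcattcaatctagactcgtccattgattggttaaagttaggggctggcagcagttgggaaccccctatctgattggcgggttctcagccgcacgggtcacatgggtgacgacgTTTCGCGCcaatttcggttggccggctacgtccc
In *Mcm6* a pair of the matches overlaps within 1 run of capitals. Counted by gene, with a match in any promoter window, these letters stood in 15 of 35 genes of the list (42.9%). The same count gave 3 of 24 genes of the mitosis list (12.5%), 0 of 22 of the absorptive colonocyte list and 531 of 12583 tested genes with a promoter (4.22%). Counted by single window, they stood in 744 of all 32851 promoters of that length (2.26%). A second promoter window of *Mcm7* and that of *Pcna* held none of these letters. A match describes the letters and is no measure of binding.

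*Mcm3* was at 20.2, 22.6 and 18.2 CPM in WT and 42.2, 32.1, 31.7, 48.0 and 30.1 CPM in *Il23r*ΔTreg mice (log2 fold change 0.86, standard error 0.19, unadjusted p = 0.00121 by edgeR). *Mcm7* was at 31.2, 36.0 and 29.4 CPM in WT and 56.8, 48.2, 48.5, 65.5 and 43.3 CPM in *Il23r*ΔTreg mice (log2 fold change 0.70, standard error 0.16). *Mcm6* was at 34.7, 44.5 and 34.3 CPM in WT and 60.4, 55.9, 64.4, 74.5 and 49.6 CPM in *Il23r*ΔTreg mice (log2 fold change 0.69, standard error 0.17). In each of them the lowest *Il23r*ΔTreg library lay above the highest WT library, and mouse2904 was the highest of all. *Mcm5* had 0.91 (standard error 0.23), *Mcm2* 0.67 (standard error 0.23) and *Mcm4* 0.49 (standard error 0.16). *Pcna*, the clamp that holds polymerases on DNA, was at 66.1, 77.7 and 65.0 CPM in WT and 109, 97.6, 108, 118 and 87.1 CPM in *Il23r*ΔTreg mice (log2 fold change 0.58, standard error 0.15). *Rrm1* and *Rrm2*, the subunits of ribonucleotide reductase, had 0.62 (standard error 0.17) and 0.91 (standard error 0.28), and *Rrm2* was highest in mouse2901 at 25.3 CPM against 10.5 to 14.4 CPM in the other *Il23r*ΔTreg mice. *Lig1*, which joins the lagging-strand fragments, had 0.74 (standard error 0.20), *Cdc45* of the helicase complex 0.78 (standard error 0.22), *Fen1* 0.73 (standard error 0.24) and *Uhrf1* 0.76 (standard error 0.23). The single member with a lower mean was *Rfc1* (-0.17, standard error 0.29), which was highest in WT mouse2990 at 81 CPM.

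Summed over the list, DNA replication genes were at 658, 768 and 739 CPM in WT and 1217, 955, 1021, 1124 and 905 CPM in *Il23r*ΔTreg mice, with no overlap. In tumors the sums were 2074, 1539 and 1615 CPM in WT and 2443, 1708, 1682, 1633 and 2205 CPM in *Il23r*ΔTreg mice, which overlapped, with a median log2 fold change of 0.14 and 0 genes called by edgeR. The interaction of tissue and genotype did not pass for *Mcm5* (unadjusted p = 0.0248, adjusted p = 0.305 by edgeR) or for *Pcna* (unadjusted p = 0.0229, adjusted p = 0.3 by edgeR). The count of 30 was 16 without WT mouse2988 and to 21 without WT mouse2990 and *Il23r*ΔTreg mouse2901 together, where the median was 0.55. With library size alone as the scale, the median was 0.71 beside 0.23 over all genes, and with the trend of each library with gene length removed it was 0.53. Genes of mitosis, which act later in the cell cycle, overlapped between the genotypes in their sums. Of 30 such genes 0 were called by edgeR or DESeq2 and 0 had an unadjusted p under 0.05 by edgeR, their median was 0.37, and their sums were 668, 678 and 1815 CPM in WT and 1581, 852, 1402, 577 and 859 CPM in *Il23r*ΔTreg mice, with WT mouse2990 the highest of all. That contrast rested on single libraries, since without WT mouse2990 the median of the mitosis list was 0.65, with 2 genes at an unadjusted p under 0.05, beside 0.61 for DNA replication, and without mouse2901 it was 0.12.

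Genes of absorptive colonocytes, the surface cells that take up salt and water, were lower as a group in *Il23r*ΔTreg mice. This list too was chosen with earlier results of these data known. Its genes do not replicate each other, and counts of them are no test of the group. Of 29 genes tested, 28 had a lower mean, 11 an unadjusted p under 0.05 by edgeR in that direction (2.06% of all genes tested) and 8 did not overlap between the groups (1.37% of all genes tested). The median log2 fold change was -0.49 and the smallest adjusted p was 0.955, with 0 genes called by edgeR or DESeq2. Their sums were 20279, 18372 and 23993 CPM in WT and 10320, 13644, 12418, 17084 and 13613 CPM in *Il23r*ΔTreg mice, so that every *Il23r*ΔTreg library lay below every WT library. *Slc26a3*, the chloride and bicarbonate exchanger of the colon surface, was at 900, 634 and 1225 CPM in WT and 229, 368, 494, 621 and 404 CPM in *Il23r*ΔTreg mice (log2 fold change -1.12, standard error 0.31, unadjusted p = 0.00476 by edgeR). *Slc26a2*, a sulfate transporter, was at 878, 982 and 2207 CPM in WT and 318, 706, 646, 694 and 530 CPM in *Il23r*ΔTreg mice (log2 fold change -1.23, standard error 0.34). Neither overlapped between the genotypes, and *Slc26a2* was highest by far in WT mouse2990.

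*Slc9a3*, the sodium and proton exchanger of the brush border, was at 40.6, 65.8 and 230 CPM in WT and 37.0, 35.1, 31.8, 27.5 and 43.2 CPM in *Il23r*ΔTreg mice. The log2 fold change of *Slc9a3* was -1.69 (standard error 0.45) with all mice and -0.61 without WT mouse2990, and *Slc20a1*, a phosphate transporter (-1.35, standard error 0.41), was likewise at 890 CPM there against 322 and 331 CPM in the other WT mice. *Ceacam20*, an adhesion protein of microvilli, was not set by that mouse, with 152, 147 and 146 CPM in WT and 91.2, 106, 98.4, 124 and 109 CPM in *Il23r*ΔTreg mice (log2 fold change -0.49, standard error 0.14). *Slc9a2* had -0.49 (standard error 0.17) and the membrane mucin *Muc3* -0.81 (standard error 0.24), also without overlap. The carbonic anhydrase *Car1* had -0.53 (standard error 0.25, no overlap), whereas *Car4* (-0.59, standard error 0.42) and the water channel *Aqp8* (-0.57, standard error 0.44) overlapped, with mouse2904 at 1098 CPM of *Car4* and 516 CPM of *Aqp8*, above every WT mouse. The single gene with a higher mean was *Guca2b*, the hormone uroguanylin (0.22, standard error 0.30). *Abcb1a*, the drug efflux pump of the same surface cells, was at 595, 641 and 1385 CPM in WT and 316, 397, 555, 395 and 302 CPM in *Il23r*ΔTreg mice (log2 fold change -1.15, standard error 0.31), without overlap.

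The count of 11 absorptive genes was 6 without WT mouse2990, 16 without *Il23r*ΔTreg mouse2904 and 6 without mouse2990 and mouse2901 together, where the median was -0.36. With library size alone as the scale it was 5, with a median of -0.28 beside 0.23 over all genes, and the replicate block with all 16 libraries gave 5. In tumors the list was at 3970, 6802 and 4514 CPM in WT and 2489, 4428, 4409, 4484 and 3269 CPM in *Il23r*ΔTreg mice. The median there was -0.56, and 3 of 29 genes were called lower by edgeR, beside 271 of all 17122 genes tested. Goblet cell genes did not move with them. Their 19 tested members had a median of 0.00, with 1 lower at an unadjusted p under 0.05 by edgeR and 0 called by edgeR or DESeq2, with *Muc2* at 0.04 (standard error 0.42) and *Fcgbp* at -0.07 (standard error 0.31). Enteroendocrine genes had a median of -0.14 over 19 genes (-0.05 without mouse2901) and smooth muscle genes 0.20 over 22, and in both lists 0 genes were called by edgeR or DESeq2 and 0 had an unadjusted p under 0.05 by edgeR.

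**Figure D4:**
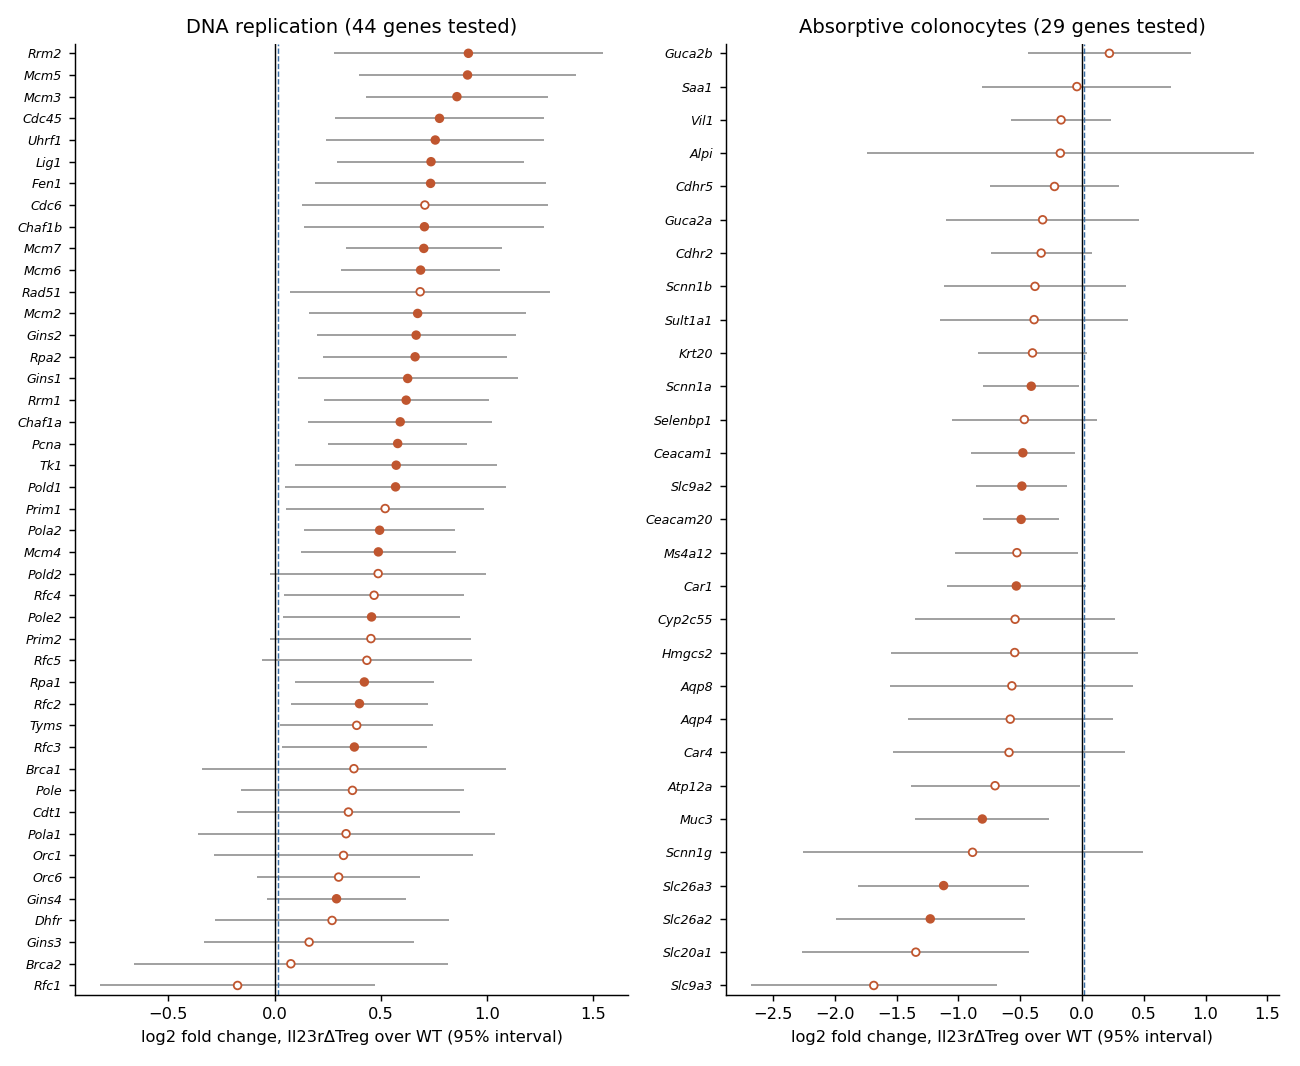
Log2 fold change (*Il23r*ΔTreg over WT) with its 95% interval for the 44 genes of DNA replication (left) and the 29 of absorptive colonocytes (right), with filled points where the groups did not overlap and a dashed line at the median of all genes tested. All but *Rfc1* on the left lie above 0 and all but *Guca2b* on the right lie below 0.

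Across all 43 lists, 873 distinct genes were tested and 0 were called by edgeR or by DESeq2, with a smallest adjusted p of 0.334 (*ND3*). By edgeR, 79 had an unadjusted p under 0.05, 54 higher and 25 lower, beside 629 of all 16372 genes tested. The DNA replication list held 30 of the higher and the absorptive colonocyte list 11 of the lower. Besides those lists, summed CPM did not overlap between the genotypes for heat shock and unfolded protein response genes (higher), immediate early genes (lower) and mitochondrially encoded genes (lower). A median beyond 0.5 in size was found in 6 lists. Squamous epithelium, which lines the anal canal and not the colon, had the largest, 3.55 over 11 genes. It was 2.19 without mouse2901 and 2.31 without mouse3883, and of 5 genes at an unadjusted p under 0.05 by edgeR 0 were left without WT mouse2990. Its sums were 16.3, 11.9 and 11.7 CPM in WT and 333, 10.8, 20.1, 10.0 and 356 CPM in *Il23r*ΔTreg mice, high in mouse2901 and mouse3883 only. *Krt5*, a keratin of basal squamous cells, was at 0.845, 1.23 and 0.306 CPM in WT and 85.4, 0.800, 0.495, 0.734 and 93.0 CPM in *Il23r*ΔTreg mice (log2 fold change 5.51, standard error 2.04, adjusted p = 0.955 by edgeR). *Krt13*, *Krt14* and *Ltf*, the secreted iron-binding protein lactoferrin, were high in the same 2 mice, at 58.7 and 109 CPM, 85.9 and 35.7 CPM, and 104 and 148 CPM, against 4.45 CPM or less in the other adjacent normal libraries. *Retnlb*, a goblet cell peptide induced by microbes, was also highest in these 2 mice, at 34.5 and 24.2 CPM against 1.56 to 3.53 CPM in the others.

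B cell and lymphoid follicle genes had a median of 1.15 over 23 genes, of which 22 had a higher mean and 2 an unadjusted p under 0.05 by edgeR. Their sums were 399, 278 and 245 CPM in WT and 939, 314, 509, 289 and 372 CPM in *Il23r*ΔTreg mice. *Ms4a1*, which encodes CD20, was at 6.84, 2.46 and 5.22 CPM in WT and 40.0, 4.67, 24.0, 1.59 and 5.27 CPM in *Il23r*ΔTreg mice (log2 fold change 1.64, standard error 0.93, adjusted p = 0.955 by edgeR). Mouse2901 and mouse2903 were high for *Ms4a1* and the other 3 *Il23r*ΔTreg mice lay in or near the WT range. Without mouse2901 the median of the list was 0.50. The count of 2 genes at an unadjusted p under 0.05 was 0 without mouse2901, mouse2989 or mouse2990, 1 without mouse2903, 3 without mouse2988, 4 without mouse2902 and 12 without mouse2904. In tumors the list went the other way, with a median of -2.81 and 11 of 23 genes called lower by edgeR, beside 271 of all 17122 genes tested. There *Ms4a1* was at 3.67, 15.9 and 2.73 CPM in WT and 0.0702, 0.686, 0.508, 0.524 and 0.471 CPM in *Il23r*ΔTreg mice. The interaction of tissue and genotype for *Ms4a1* had an unadjusted p of 0.000618 and an adjusted p of 0.159 by edgeR, so it did not pass.

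Other immune lists followed the mouse more than the genotype. Plasma cell genes summed to 10549, 7590 and 3177 CPM in WT and 20436, 4516, 4420, 4731 and 9652 CPM in *Il23r*ΔTreg mice, and *Igha*, the IgA heavy chain, ran from 1608 to 5742 CPM in WT and from 2202 to 11210 CPM in *Il23r*ΔTreg mice (log2 fold change 0.29, standard error 0.61). MHC genes summed to 7109, 4077 and 2233 CPM in WT and 7975, 3425, 3017, 3436 and 5525 CPM in *Il23r*ΔTreg mice. Their median was 0.11 in adjacent normal tissue and -1.98 in tumors, where 13 of 20 genes were called lower by edgeR, beside 271 of all 17122 genes tested. In adjacent normal tissue the MHC median was -0.17 without mouse2901 and -0.19 without WT mouse2990. Interferon-stimulated genes summed to 1246, 1016 and 781 CPM in WT and 2057, 681, 654, 773 and 1511 CPM in *Il23r*ΔTreg mice. In all of these, mouse2901 and mouse3883 were the highest *Il23r*ΔTreg mice and mouse2988 the highest WT mouse. T cell receptor complex genes had a median of 0.41 over 18 genes, which was -0.01 without mouse2901 and 0.10 without WT mouse2990. Th1 and cytotoxic, Th17 and macrophage lists had medians of 0.27, 0.11 and 0.09, which were -0.17, -0.11 and -0.01 without mouse2901 and -0.10, 0.05 and -0.01 without WT mouse2990. With all libraries they had 0 genes called by edgeR or DESeq2 and 0 of 18, 13 and 25 genes at an unadjusted p under 0.05 by edgeR. For neutrophil and acute inflammation genes the median was 0.90, but 0.54 without WT mouse2990 and 0.02 without mouse2901, where *S100a8*, a calcium-binding protein of neutrophils, was at 36.6 CPM against 0.516 to 3.30 CPM in the other 7 libraries. Th2, mast cell and eosinophil genes all had higher means (15 of 15, median 0.83, 4 at an unadjusted p under 0.05 by edgeR, 0 called). Without WT mouse2990 their median was 0.49 with 1 such gene, without mouse3883 it was 0.79 with 1, and in tumors it was -1.65. Of this list *Cma1*, a mast cell chymase, was at 6.79, 6.10 and 1.36 CPM in WT and 5.71, 8.43, 9.63, 9.05 and 8.65 CPM in *Il23r*ΔTreg mice, overlapping between the genotypes. How far the shares of squamous, lymphoid and follicle tissue in a piece set the differences between genotypes was not tested.

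**Figure D5:**
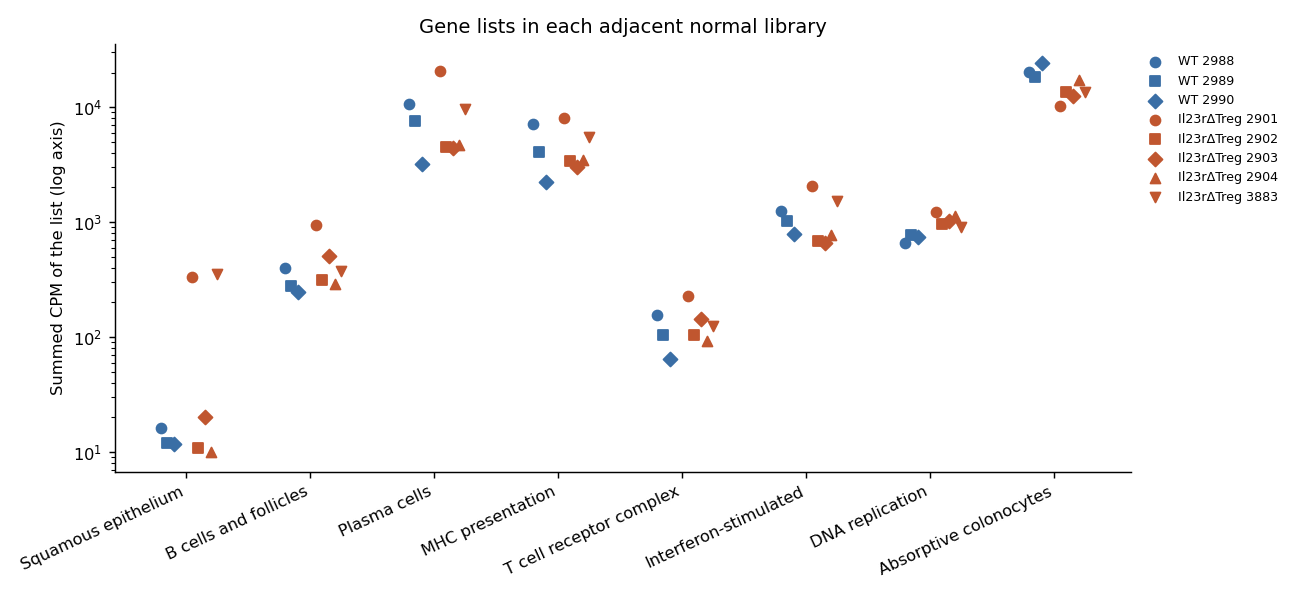
Summed CPM (log axis) of 8 gene lists in each adjacent normal library, with a marker per mouse, WT in blue and *Il23r*ΔTreg in orange. Of these 8 lists, the genotypes do not overlap for DNA replication and absorptive colonocytes, while squamous epithelium is high in *Il23r*ΔTreg mouse2901 and mouse3883 alone and the immune lists are led by mouse2901.

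The genes that varied most between mice of 1 genotype included a pseudogene, chemokine copies and the squamous keratins. By the SD of log2 CPM within groups, the 10 largest among genes whose mean log2 CPM reached 1 were *Ccl21b*, *Gm10222*, *Exosc6*, *Ccl21d*, *Rpl14-ps1*, *n-R5s100*, *Ltf*, *Gm10163*, *Krt5* and *Krt13*. *Gm10222* was at 104, 0 and 0 CPM in WT and 78.7, 96.1, 83.5, 86.1 and 89.4 CPM in *Il23r*ΔTreg mice, and edgeR called it when WT mouse2988 was left out (adjusted p = 4.44e-06). *Rpl14-ps1*, a ribosomal protein pseudogene, was at 0, 0 and 24.0 CPM in WT and 12.2, 60.4, 39.0, 42.4 and 18.2 CPM in *Il23r*ΔTreg mice, and was called without mouse2990 and mouse2901 (adjusted p = 0.00834 by edgeR). *Ccl21b* and *Ccl21d*, copies of a chemokine gene of lymphatic vessels, were listed at 0 in WT mouse2990 and *Il23r*ΔTreg mouse3883, and in mouse2903, respectively. Sequence shared with other genes was not measured for these 10 genes, and the values of copies and pseudogenes are uncertain.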

How the data were processed

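Whole-tissue RNA was extracted by the authors from tumor-adjacent colon and sequenced in paired 150 bp reads. The reads were trimmed with fastp (0.20.0) and quantified with Salmon (1.4.0) against a mouse transcriptome named as Gencode version 21. The authors deposited the estimated counts, rounded, of 19574 genes. Of their identifiers, 19493 carry a later version than mouse release M21, so the release is not known and no gene coordinates from the counts are given. Counts estimated for near-identical genes can shift between them. The deposited normalized tables, fold changes and p-values were not used, nor were 64 columns whose names the labels do not map to mice.

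Groups came from the labels. Genes were kept by filterByExpr (minimum count 10, 16372 genes), scaled by TMM and tested with edgeR 4.0.16 (quasi-likelihood) in R 4.3.3 on the 8 adjacent normal libraries, with Benjamini-Hochberg adjustment over all genes tested. All adjusted p-values credited to edgeR are from this fit, and those of tumors and of the interaction from a fit of all 16 libraries (17122 genes). Total counts of 45092714 to 53943842 per library and a biological coefficient of variation of 0.311 set the precision. CPM of adjacent normal libraries were scaled over those 8 and CPM of tumors over all 16, so levels were not tested between tissues here. The similarity of groups was tested by an exact permutation test on log2 CPM (prior count 2).

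The groups, gene lists and tests were chosen with earlier results of these data known. Genes were named by rule: *Il23r*, *Foxp3* and the IL-12 and IL-23 list, up to 12 called genes per direction (or, short of that, the smallest p with a log2 fold change beyond 1, groups without overlap and 1 or more as mean log2 CPM), up to 4 called genes or the 2 smallest p per list, the 10 most variable genes, and genes called in both tissues. Some of those taken by list are not described singly. Further genes (among them *Gm21451*, *Klk1b22*, *Gm1965*, *Pira11* and single DNA replication, colonocyte and B cell genes) were added after their values were seen. Promoters were taken from RefSeq GRCm38.p6.

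By the labels, tumor and adjacent normal libraries with 1 mouse number come from 1 animal, and they were paired on that basis, although the pair of mouse2990 is in doubt (*Nnt*, *Xist*) and the cage label of mouse2901 differs between its libraries. The correlation of their deviations from the group means ran from -0.266 in WT mouse2989 to 0.327 in WT mouse2990. Alternatives were other scalings and filters, DESeq2 1.42.0, limma 3.58.1 (trend with a prior count of 3, or voom), all 16 libraries with or without the mouse as a replicate block, other thresholds, no *Rn18s*, and each library left out. The fits without WT mouse2990 and *Il23r*ΔTreg mouse2901 and with the gene length trend removed were chosen after seeing the data. No library pair was identical. Results of some genes are not reported here. The code was tested on simulated counts.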

Additional observations from a re-analysis of the deposited data

Results flagged for a closer look

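Among the 5 *Il23r*ΔTreg libraries, 189 values (named genes, list sums and library measures) were searched for a library far from the other 4, by the gap to its nearest neighbor as a share of the whole range, with a limit of 0.71. For normally distributed values chance flags about 1 in 20, and 16 (8.47%) passed here. Gene and list values were CPM without a log, and some genes were chosen for their spread or after their values were seen. All 16 flags were on the high side. The rate of 1 in 20 is therefore no benchmark for these values. The WT group, with 3 mice, was not searched.

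Mouse2901 was the highest in 11 of them. They were the neutrophil genes *S100a8* (gap share 0.992) and *S100a9* (0.952), the cytotoxic granule gene *Gzmb* (0.867), the T cell costimulator *Icos* (0.78), the addressin *Madcam1* of gut venules (0.816), the antibody segment *Ighv1-62-2* (0.772), the ribosomal RNA gene *n-R5s100* (0.94), the mitosis genes *Aurkb* (0.723) and *Cdca8* (0.71), and *Rrm2* (0.738) and *Timeless* (0.75) of DNA replication. Mouse3883 was the highest for the clock genes *Ciart* (0.85) and *Usp2* (0.775) and for the summed level of cholesterol and fatty acid synthesis genes (0.846). Mouse2903 was the highest for *Il23a* (0.88). Mouse2904 was the highest for the antibody segment *Igkv3-2* (0.732).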

How the results depend on the processing

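*Gm16867* was called under all 21 alternatives run. The count of called genes was 1 under each except 12 with DESeq2 (10 higher, 2 lower), 2 without WT mouse2988, 3 without *Il23r*ΔTreg mouse2901 and 4 without mouse2990 and mouse2901 together, and ran from 1 to 3 over the libraries left out. With the mouse as a replicate block in limma voom it was 1, and 0 for the interaction of tissue and genotype, which called 349 genes by DESeq2 and 0 to 0 with a mouse left out. The difference of distances between and within genotypes was 0.101 over the 500 most variable genes and ran from -7.34 to 2.74 over the libraries left out, and the cause of the changes of sign was not tested. Of 3040 pairs of 145 followed genes and settings, 13 gained a call, 0 lost one and 0 reversed a called direction, while 24 genes not called changed sign under a setting. Low genes limit the comparison most, since only 19% of those under a mean log2 CPM of 1 had a 95% interval within 1 of 0. Those intervals are not adjusted for the number of genes, and high genes with a log2 fold change beyond 1 also failed the adjusted test. Cage, the litter, the time of day and the position of a piece along the colon were not varied.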

Other observations

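Clock genes tended to be lower in *Il23r*ΔTreg mice except mouse3883. The 19 tested genes summed to 1493, 1099 and 1045 CPM in WT and 750, 941, 787, 750 and 1374 CPM in *Il23r*ΔTreg mice, 18 of them had a lower mean and 2 an unadjusted p under 0.05 by edgeR (10 without mouse3883, 4 without mouse2990 and 0 without mouse2901), with 0 called and a median log2 fold change of -0.35. *Ciart*, a repressor of the clock, was at 33.6, 15.9 and 9.31 CPM in WT and 5.01, 7.14, 5.82, 6.27 and 19.2 CPM in *Il23r*ΔTreg mice, and *Dbp*, an output gene of the clock, was at 188, 124 and 82.0 CPM and 41.9, 97.5, 55.6, 58.0 and 142 CPM. WT mouse2988 and *Il23r*ΔTreg mouse3883 were the highest of their groups for both. In the same mouse3883, genes of cholesterol and fatty acid synthesis summed to 6390 CPM, against 3881 to 4355 CPM in the other 7 libraries.

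Stem cell and Wnt target genes had a median of 0.06 over 19 genes, with 4 higher (2 without WT mouse2990) at an unadjusted p under 0.05 by edgeR and 0 called by edgeR or DESeq2. *Smoc2*, a matrix protein of the crypt base, was at 16.3, 20.9 and 15.7 CPM in WT and 30.9, 34.3, 23.2, 22.5 and 35.8 CPM in *Il23r*ΔTreg mice, without overlap (log2 fold change 0.73, standard error 0.21). *Lgr5*, the R-spondin receptor of crypt stem cells, was at 1.29, 2.31 and 1.32 CPM in WT and 1.81, 5.56, 8.07, 1.77 and 5.44 CPM in *Il23r*ΔTreg mice, with mouse2901 and mouse2904 in the WT range. Heat shock and unfolded protein response genes had a median of 0.32 over 24 genes, 3 higher at an unadjusted p under 0.05 by edgeR and 0 called by edgeR or DESeq2, and *Pdia6*, a protein disulfide isomerase, was at 145, 150 and 155 CPM in WT and 219, 172, 215, 238 and 173 CPM in *Il23r*ΔTreg mice. Xenobiotic metabolism genes had a median of -0.22 over 30 genes (-0.13 without mouse2901), 3 lower at an unadjusted p under 0.05 by edgeR and 0 called by edgeR or DESeq2.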
